A study of Mus musculus with 9 samples.

Results

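The genes that bring arginine into the cell, split it, rebuild it or turn it into polyamines were followed in mouse bone marrow (BM)-derived Mϕs (macrophages) by RNA sequencing (RNA-seq). They were 10 genes fixed by name, namely the carriers Slc7a1 and Slc7a2, the arginases Arg1 and Arg2, the nitric oxide synthase Nos2, the arginine-rebuilding enzymes Ass1 and Asl, and the polyamine enzymes Odc1, Srm and Sms. All 10 were found by their Ensembl identifiers among the 53379 genes of the expression table, and 9 of the 10 passed a filter on low values (a mean of at least 0.5 FPKM over the 9 libraries), which 12824 genes of the table passed. FPKM counts sequenced cDNA fragments per 1000 bases of transcript and per 1000000 fragments, so levels of different genes can be set side by side within a library. Nos2 was the gene below the filter. Slc7a2 owed nearly all of its mean to its IL-4 libraries, and its mean over the control and IL-6 libraries was 0.503 FPKM, just above that limit.

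BM cells of 3 C57BL/6 wild-type mice were cultured with 10 ng/ml macrophage colony-stimulating factor (M-CSF, also called CSF-1) for 3 days and then for another 4 days with M-CSF alone (control), with M-CSF plus 10 ng/ml IL-4, or with M-CSF plus 100 ng/ml IL-6. Every culture, controls included, therefore received M-CSF throughout. Each condition had 3 libraries, numbered #1 to #3, and the comparisons ask which genes each cytokine moved away from the M-CSF control and where the cytokines differed. These doses and times are those of the sample labels. The study's methods give another dose of IL-4, and its figure legends other doses and another time.

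Arginine is the shared substrate of enzymes with opposed roles in Mϕs. Cationic amino acid carriers of the Slc7 family import it, nitric oxide synthase turns it into nitric oxide and citrulline, and arginase splits it into urea and ornithine. Citrulline can be returned to arginine by argininosuccinate synthase (Ass1) and argininosuccinate lyase (Asl). Ornithine feeds the polyamines, small positively charged molecules needed for growth and translation: ornithine decarboxylase (Odc1) makes putrescine, spermidine synthase (Srm) makes spermidine and spermine synthase (Sms) makes spermine. Arg1 is a long-used mark of Mϕs that met IL-4, and Nos2 of Mϕs that met interferon and microbial products.

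RefSeq start sites (GRCm38.p6) were at hand for 4 of the 10 genes, in 6 windows from 250 bases before to 50 bases after a start. The 250 bases before the start are printed for the 3 windows that held one of the searched motifs, because Ass1, Slc7a1 and Sms are members whose RNA differed between conditions. Searched were TTCNNNGAA and TTCNNNNGAA, spacings that STAT factors are known to bind, and the E-box CACGTG, each of which reads the same on both strands. TTCNNNGAA was present in 8.30% of all 32851 RefSeq windows, TTCNNNNGAA in 6.95% and CACGTG in 7.15%. Capitals mark the motif, which begins 36 bases before the start of Ass1 (chr2:31470020-31470269, plus strand), 146 bases before the second start of Slc7a1 (chr5:148392816-148393065, minus strand) and 196 bases before the first listed start of Sms (chrX:157492288-157492537, minus strand). A match is a description of the letters and not a shown binding site. The windows of Odc1, the other Slc7a1 start and the other Sms start held none of the 3 motifs.
Ass1: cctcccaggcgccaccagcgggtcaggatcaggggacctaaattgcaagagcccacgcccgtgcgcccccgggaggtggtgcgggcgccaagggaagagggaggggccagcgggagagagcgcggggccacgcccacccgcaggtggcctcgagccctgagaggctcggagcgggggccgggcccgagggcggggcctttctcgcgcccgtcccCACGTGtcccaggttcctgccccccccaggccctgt
Slc7a1: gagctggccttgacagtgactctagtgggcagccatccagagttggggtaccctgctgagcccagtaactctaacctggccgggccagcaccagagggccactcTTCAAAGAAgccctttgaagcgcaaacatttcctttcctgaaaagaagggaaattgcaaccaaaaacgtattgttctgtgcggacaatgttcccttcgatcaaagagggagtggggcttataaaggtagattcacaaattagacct
Sms: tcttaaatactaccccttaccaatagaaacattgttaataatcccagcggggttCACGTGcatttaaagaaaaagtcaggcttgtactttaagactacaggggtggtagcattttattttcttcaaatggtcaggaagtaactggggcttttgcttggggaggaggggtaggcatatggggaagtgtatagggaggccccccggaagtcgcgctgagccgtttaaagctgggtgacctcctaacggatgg

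The library totals by which FPKM were scaled, recovered from the values, were 29988160 to 39909571 fragments. Socs3, a gene that IL-6 signalling is known to induce, was higher by 5.12 on the log2 scale with IL-6 and by 0.16 with IL-4, and Retnla, a gene known to answer IL-4, was higher by 11.69 with IL-4 and by 2.44 with IL-6. Neither gene went against the labels, and the Retnla change with IL-6 was 2.17 (adjusted p = 0.17) with the division of libraries described next as a term. All 7 macrophage markers were detected in each library. The summed level of that list was 16537 to 18825 FPKM in control, 6006 to 7028 in IL-4 and 20053 to 21174 in IL-6 libraries, most of it Lyz2. Without Lyz2 the other 6 summed to 2744 to 2760 FPKM in control, 1293 to 1527 in IL-4 and 2120 to 2210 in IL-6 libraries, and of these Itgam alone had a higher mean with IL-4 (60.1 FPKM) than in control (35.3 FPKM). The summed level of 9 neutrophil and granulocyte precursor genes was 1122 to 1956, 421 to 540 and 1559 to 2271 FPKM in the same order. Fragments of 13 intestinal genes were at 808 to 1017 in the 3 control libraries and IL-4 #1 and at 3 to 8 in the other 5. IL-6 and control libraries therefore lie entirely on opposite sides of this division, so that it cannot be told apart from IL-6 treatment within that comparison, and a fit with the division as a term leans on the IL-4 libraries alone. IL-4 #3 stood apart from IL-4 #1 and #2, with a root mean square log2 difference of 1.23 and 1.09 against 0.536 between those, and lay lower for long transcripts (median log2 difference -0.97 over genes with at least 6179 exon bases and 0.39 over genes with at most 2009).

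Each log2 fold change (log2FC, given ± its standard error) was taken on log2(FPKM + 0.1), a scale that shrinks changes of weakly expressed genes, and tested with limma over the 12824 genes with Benjamini-Hochberg adjustment. A gene is said to have risen or fallen where its adjusted p was below 0.05, and is called where the change was also at least 2-fold. In IL-4-treated Mϕs 4 of the 9 tested members were called higher (Arg1, Slc7a2, Slc7a1 and Ass1) and 0 lower, against a background of 5.02% of all genes called higher and 8.89% lower. By the adjusted p alone 5 members rose and 1 fell under IL-4, where 8.55% and 16.3% of all genes did, and under IL-6 they were 3 and 1, where 4.58% and 3.82% did. In IL-6-treated Mϕs 3 were called higher (Arg2, Ass1 and Arg1) and 1 lower (Sms), against 3.49% and 1.89% of all genes. IL-6 against IL-4 gave 1 member called higher (Arg2) and 5 lower (Arg1, Slc7a2, Slc7a1, Sms and Srm), against 13.6% and 6.82%. The median log2FC of the 9 members was 0.66 with IL-4, -0.16 with IL-6 and -1.31 for IL-6 against IL-4, beside -0.20, -0.0044 and 0.22 over all genes tested. Rescaling each library by its median ratio brought the IL-4 median of all genes to -0.01 and changed the split of its calls from 644 higher and 1140 lower to 834 and 874, with the same number of members called. The libraries did not overlap for 6, 7 and 8 of the 9 members in these comparisons, where 40.3%, 43.2% and 56.9% of all genes did not. IL-4 and IL-6 share the control libraries, so their changes are given side by side and not as independent results.

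**Figure D1:**
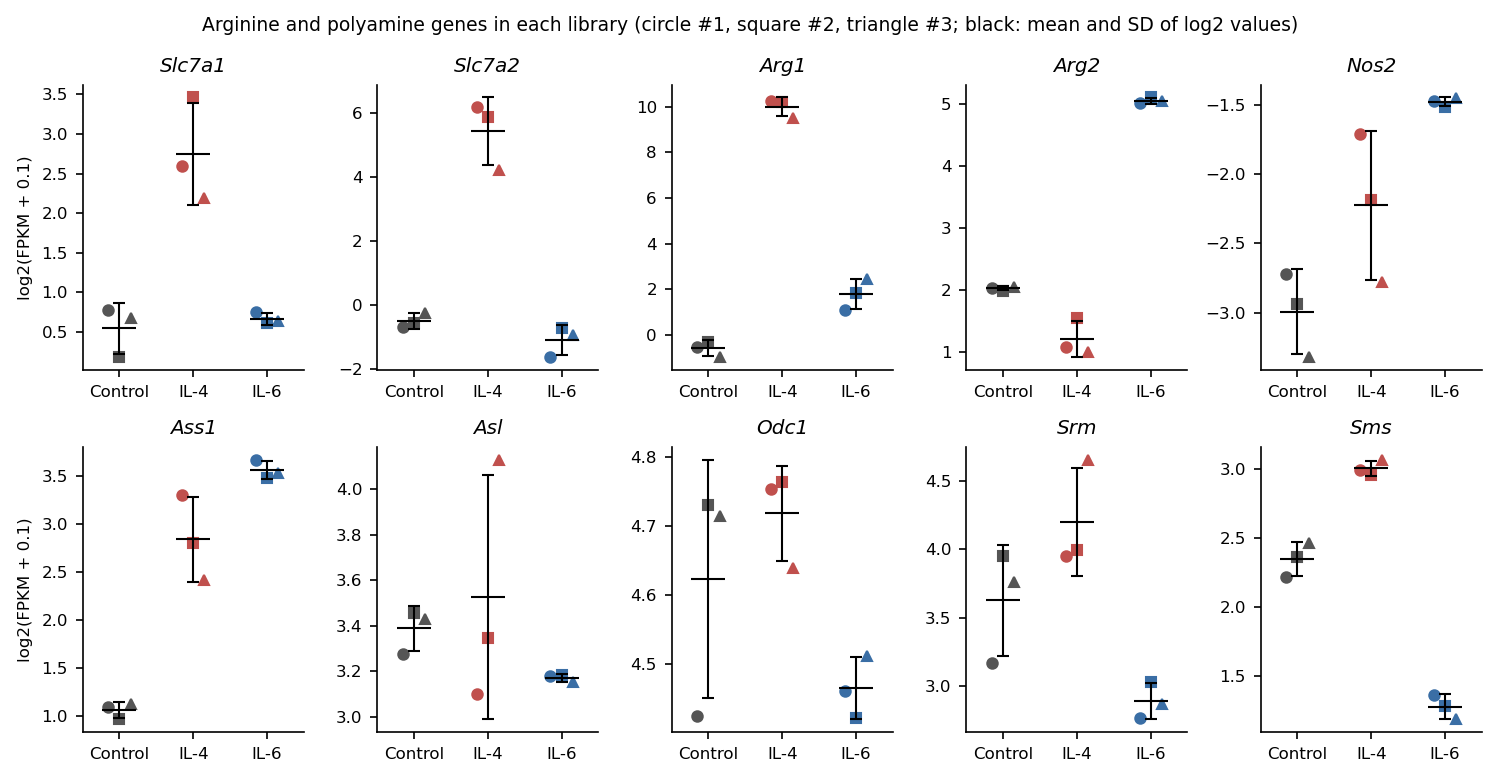
Level of the 10 genes in each of the 9 libraries, as log2(FPKM + 0.1), with a panel for each gene and its own vertical scale. Points are libraries (circle #1, square #2, triangle #3), and the black bar and whiskers are the mean and SD of 3 log2 values. Arg1, Slc7a1 and Slc7a2 stand high with IL-4, Arg2 with IL-6, Ass1 with both, and Sms is highest with IL-4 and lowest with IL-6.

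Among the arginine carriers, both members rose with IL-4 and neither was called with IL-6. Gene coordinates are those of GENCODE M21 on GRCm38. Slc7a2 (ENSMUSG00000031596.15, chr8:40862396-40922308, plus strand), the carrier known to be inducible in Mϕs, stood at 0.521, 0.584 and 0.752 FPKM in control #1 to #3. It reached 73.1, 58.1 and 18.7 FPKM in IL-4 #1 to #3, and 0.226, 0.506 and 0.431 FPKM in IL-6 #1 to #3. Every IL-4 library was far above every other library, and the IL-6 libraries all lay below the controls. The IL-4 mean was 80.7 times the control mean (log2FC 5.92 ± 0.49, adjusted p = 0.00010). IL-4 #3 was the lowest IL-4 library, and without it the log2FC with IL-4 was 6.52. IL-6 against control gave a log2FC of -0.59 ± 0.49 (adjusted p = 0.56), which turned to 0.55 with the division of libraries as a term (adjusted p = 0.63), so no direction is given for it.

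Slc7a1 (ENSMUSG00000041313.14, chr5:148327410-148399904, minus strand), the carrier found in most tissues, was at 1.62, 1.04 and 1.495 FPKM in the control libraries. IL-4 libraries held 5.92, 10.9 and 4.48 FPKM and IL-6 libraries 1.58, 1.43 and 1.45 FPKM. The lowest IL-4 library was above the highest of the other 6, whereas IL-6 and control libraries overlapped. The change with IL-4 was 5.13-fold (log2FC 2.201 ± 0.32, adjusted p = 0.0016), and with IL-6 the log2FC was 0.12 ± 0.32 (adjusted p = 0.87). Slc7a1 carries the TTCNNNGAA match printed above, while Slc7a2, which changed more, was not among the windows searched.

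Per length, the balance between these carriers moved with IL-4. Slc7a2 made up 31.3% ± 6.18 (SD, n = 3) of the summed Slc7a1 and Slc7a2 FPKM in control libraries, 85.8% ± 6.07 in IL-4 and 20.5% ± 7.12 in IL-6 libraries. The summed level rose from 2.00 to 57.1 FPKM with IL-4 and was 1.88 FPKM with IL-6. IL-4 libraries did not overlap with control or IL-6 libraries (two-sided exact permutation test, p = 0.1 each, which is the smallest p that 3 against 3 libraries allow), and IL-6 against control gave p = 0.2 by the same exact test.

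The arginases moved in opposite directions with IL-4, and both rose with IL-6. Arg1 (ENSMUSG00000019987.9, chr10:24915221-24927484, minus strand), the cytosolic arginase, was close to silent in control libraries, with 0.604, 0.718 and 0.409 FPKM, or 47, 48 and 32 fragments. In IL-4 libraries it reached 1227, 1176 and 730 FPKM, from 64936 to 93471 fragments, and in IL-6 libraries 2.06, 3.48 and 5.33 FPKM, from 160 to 365 fragments. The 3 groups did not overlap anywhere, in the order control, IL-6, IL-4. The IL-4 mean was 1809 times the control mean (log2FC 10.58 ± 0.36, adjusted p = 2.0e-06) and 288 times the IL-6 mean (IL-6 against IL-4 log2FC -8.19, adjusted p = 2.5e-06). IL-6 raised Arg1 6.28-fold over control (log2FC 2.39 ± 0.36, adjusted p = 0.0056), and the log2FC became 2.79 with an adjusted p of 0.10 when the division of libraries was a term. Slc7a2 is 80.7-fold higher with IL-4 but was not higher in any IL-6 library than in control, a plain measurement beside the Arg1 rise with IL-6.

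Arg2 (ENSMUSG00000021125.6, chr12:79130777-79156301, plus strand), the mitochondrial arginase, was lower with IL-4 and higher with IL-6 than in control. Control libraries held 4.01, 3.88 and 4.05 FPKM, IL-4 libraries 2.01, 2.82 and 1.91 FPKM, and IL-6 libraries 32.1, 34.3 and 32.9 FPKM. The order was IL-4, control, IL-6 with no overlap between any 2 groups. Arg2 rose 8.32-fold with IL-6 (log2FC 3.02 ± 0.16, adjusted p = 2.9e-05). With the division of libraries as a term, which takes its size from the IL-4 libraries, the log2FC was 2.82 (adjusted p = 0.0072). Arg2 fell by 0.82 ± 0.16 on the log2 scale with IL-4 (adjusted p = 0.0062), a change under 2-fold. Within the 5 libraries low in intestinal fragments, the IL-6 mean was 14.0 times that of IL-4 #2 and #3. Arg2 shares 285 of its 1428 exon bases (19.96%) with Vti1b on the opposite strand, and the strand setting of the counting was not given. Vti1b itself had a log2FC of -0.20 with IL-6 (adjusted p = 0.74).

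Set side by side in each library, Arg1 stood above Arg2 with IL-4 and below it in control and IL-6 libraries. Arg1 was 12.6% ± 3.25 (SD, n = 3) of the summed arginase FPKM in control libraries, 99.8% ± 0.051 in IL-4 and 9.73% ± 3.98 in IL-6 libraries. The summed arginase level was 4.56 ± 0.084 FPKM in control libraries, 1047 ± 274 in IL-4 and 36.7 ± 2.25 in IL-6 libraries. The share of Arg1 in IL-6 libraries overlapped with that in control (two-sided exact permutation test, p = 0.5), whereas that in IL-4 libraries lay above both (exact p = 0.1 each, the smallest possible).

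**Figure D2:**
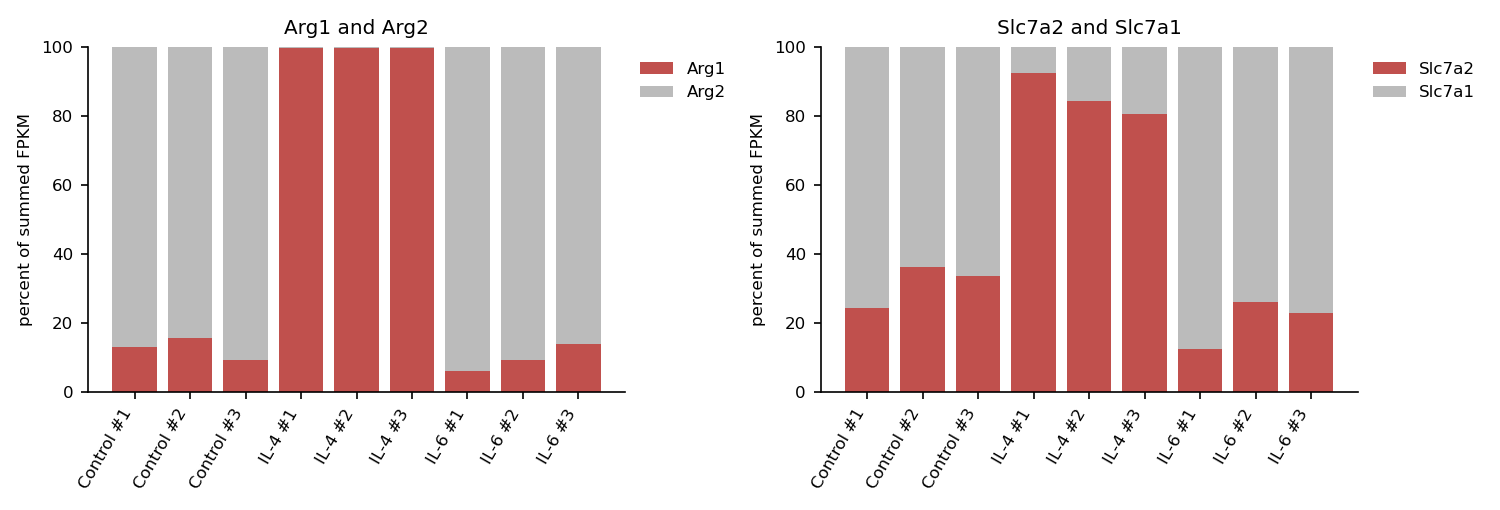
Share of each isoenzyme or carrier in the summed FPKM of its pair, in percent, for the 9 libraries. Bars run from 0 to 100, red for Arg1 (left) or Slc7a2 (right) and grey for Arg2 or Slc7a1. The 3 IL-4 bars are nearly all Arg1 and mostly Slc7a2, while control and IL-6 bars are mostly Arg2 and Slc7a1.

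Markers of mast cells and basophils were, as a sum, also higher in IL-4 libraries than in the others. The summed level of Mcpt8, Cpa3, Fcer1a and Mcpt4 was 4.65 to 10.7 FPKM in control, 26.8 to 44.0 in IL-4 and 2.45 to 7.76 in IL-6 libraries, with 1 of the 4 (Mcpt4) listed at 0 in all 9. Among IL-4 libraries, #1 was highest for this list and for Arg1, Slc7a2 and Ass1, whereas Slc7a1 was highest in #2, the library lowest for the list. Arg1, Slc7a2, Ass1 and Slc7a1 were all lowest in #3, which lay between #1 and #2 for the list. The part of mast cells and basophils in the rises of Arg1, Slc7a2, Ass1 and Slc7a1 with IL-4 was not tested. In these bulk cultures, fewer cells of a type and less RNA per cell cannot be told apart.

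Nos2 (ENSMUSG00000020826.8, chr11:78920787-78960254, plus strand), the inducible nitric oxide synthase, was near the limit of detection in every condition. Control libraries had 8, 4 and 0 fragments, IL-4 libraries 31, 16 and 8, and IL-6 libraries 40, 36 and 36. In FPKM these are 0.052, 0.030 and 0 in control, 0.206, 0.120 and 0.045 in the IL-4 group, and 0.260, 0.250 and 0.266 in the IL-6 group. The IL-6 libraries lay close together above all others, and IL-4 and control libraries overlapped. The IL-6 mean of 0.258 FPKM stood beside 33.1 FPKM for Arg2 in the same libraries. In the fit without the filter, which held 31047 genes and called 1.61% of them higher with IL-6, Nos2 had a log2FC of 1.51 ± 0.31 with IL-6 (adjusted p = 0.041). In IL-4-treated Mϕs the log2FC was 0.77 ± 0.31 (adjusted p = 0.19). The IL-6 call was lost with the replicate block (adjusted p = 0.059), with the division as a term (adjusted p = 0.073), with a pseudocount of 0.01 (adjusted p = 0.076) or of 1 (under 2-fold) and in 7 of 9 fits that left out a library, with adjusted p up to 0.16, and its size ran from 0.29 to 3.87 with the pseudocount or voom. Without IL-4 #3 the change with IL-4 was 1.05 (adjusted p = 0.043).

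Of the enzymes that return citrulline to arginine, Ass1 rose with both cytokines and Asl with neither. Ass1 (ENSMUSG00000076441.9, chr2:31470207-31520672, plus strand) joins citrulline and aspartate, the step usually held to limit arginine recovery. It stood at 2.03, 1.85 and 2.08 FPKM in control, 9.78, 6.88 and 5.25 FPKM in IL-4 and 12.7, 11.1 and 11.5 FPKM in IL-6 libraries. The order was control, IL-4, IL-6 without overlap. Ass1 rose 3.68-fold with IL-4 (log2FC 1.78 ± 0.21, adjusted p = 0.00061) and 5.93-fold with IL-6 (log2FC 2.51 ± 0.21, adjusted p = 0.00036). IL-6 exceeded IL-4 by 0.73 (adjusted p = 0.031), a difference that kept an adjusted p below 0.05 in 4 of 9 fits leaving out a library. With the division of libraries as a term the log2FC over control was 2.25 with IL-4, from IL-4 #1 alone, and 3.20 with IL-6. The processed pseudogene Gm5424, which resembles Ass1, was at 0.040 to 0.263 FPKM, far below it. The E-box of the Ass1 window printed above is the only match among the 3 motifs there.

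Asl (ENSMUSG00000025533.15, chr5:130011258-130029247, minus strand), which cleaves argininosuccinate to arginine and fumarate, was at 9.59, 10.9 and 10.7 FPKM in control, 8.48, 10.1 and 17.4 in IL-4 and 8.97, 8.98 and 8.79 in IL-6 libraries. Its 17.4 FPKM in IL-4 #3 was the highest of the 9. The IL-4 group overlapped both others with or without that library. The log2FC was 0.14 ± 0.24 with IL-4 (adjusted p = 0.70), -0.16 without IL-4 #3, and that under IL-6 was -0.22 ± 0.24 (adjusted p = 0.67). In control libraries Asl was therefore higher per length than Ass1, and with IL-6 the means were 8.91 FPKM for Asl and 11.8 for Ass1.

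**Figure D3:**
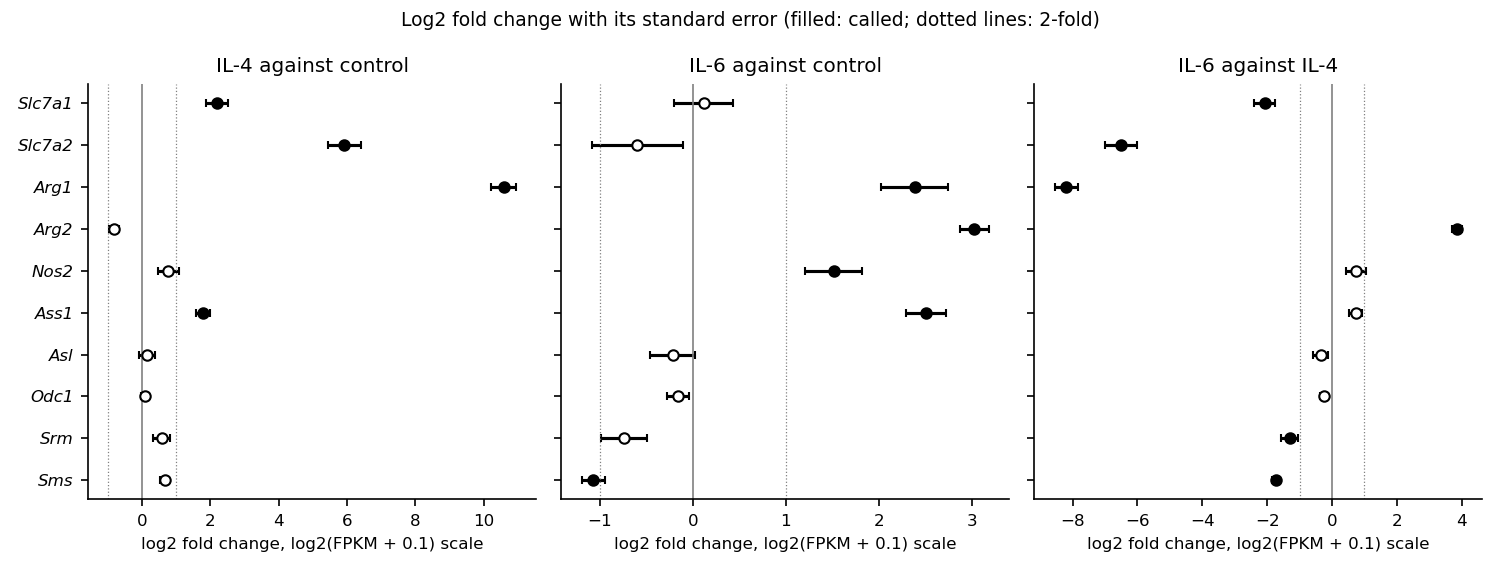
Log2 fold change of the 10 genes with its standard error, on the log2(FPKM + 0.1) scale, for IL-4 against control, IL-6 against control and IL-6 against IL-4. Filled points are called, open points are not, dotted lines mark 2-fold, and each panel has its own horizontal scale. Nos2 is from the fit without the filter on low values. Its filled point, IL-6 against control, kept its call in 2 of 9 fits that left out a library. Arg1 lies farthest to the right with IL-4 at 10.58, and Arg2 with IL-6 at 3.02.

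In the polyamine branch the entry enzyme did not pass the test in any comparison of the reported fit, and both later enzymes were called lower with IL-6 than with IL-4. Odc1 (ENSMUSG00000011179.8, chr12:17544794-17551505, plus strand), ornithine decarboxylase, was the most abundant member in control Mϕs at 21.4, 26.5 and 26.2 FPKM. It was at 26.9, 27.1 and 24.8 FPKM in IL-4 and 21.9, 21.3 and 22.7 FPKM in IL-6 libraries. The whole range over 9 libraries was 21.3 to 27.1 FPKM, and control libraries overlapped both other groups. Its log2FC was 0.10 ± 0.12 with IL-4 (adjusted p = 0.58) and -0.16 ± 0.12 with IL-6 (adjusted p = 0.51), and -0.25 between IL-6 and IL-4 (adjusted p = 0.12). All IL-6 libraries lay below the IL-4 libraries. That difference had an adjusted p of 0.030 with median-ratio rescaling, 0.042 with quantile scaling and 0.015 with a length and GC trend removed. It stayed above 0.05 in the other alternatives and with any library left out.

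Srm (ENSMUSG00000006442.10, chr4:148591503-148594993, plus strand), spermidine synthase, varied more within groups. Control libraries held 8.90, 15.3 and 13.4 FPKM, IL-4 libraries 15.3, 15.8 and 25.1 FPKM and IL-6 libraries 6.70, 8.06 and 7.21 FPKM. IL-6 libraries lay below all others, and IL-4 and control libraries overlapped narrowly. Srm was not called against control in either condition (log2FC 0.57 with IL-4, adjusted p = 0.14, and -0.74 with IL-6, adjusted p = 0.13), yet IL-6 was below IL-4 by a log2FC of -1.31 ± 0.25 (adjusted p = 0.0052). IL-4 #3 was the highest library for this short transcript, and without it the difference was -1.08, still called, and the change with IL-6 against control passed an adjusted p of 0.05 (-0.74, adjusted p = 0.026). With a length and GC trend removed, Srm rose with IL-4 (0.68, adjusted p = 0.0065) and fell with IL-6 (-0.61, adjusted p = 0.023), both under 2-fold. Outside these fits the change with IL-4 did not pass. That with IL-6 passed only with the groups compared fitted alone (adjusted p = 0.046).

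Sms (ENSMUSG00000071708.11, chrX:157443855-157492287, minus strand), spermine synthase, moved in opposite directions. It was at 4.54, 5.04 and 5.42 FPKM in control, 7.84, 7.66 and 8.27 in IL-4 and 2.48, 2.34 and 2.18 in IL-6 libraries. The groups did not overlap, in the order IL-6, control, IL-4. It rose by 0.66 ± 0.13 on the log2 scale with IL-4 (adjusted p = 0.0064), under 2-fold, and fell 2.14-fold with IL-6 (log2FC -1.07 ± 0.13, adjusted p = 0.0018). Between IL-6 and IL-4 the log2FC was -1.72 (adjusted p = 2.9e-05), or 3.398-fold. With the division of libraries as a term, the change with IL-6 was -1.09 and that with IL-4 0.64, with adjusted p of 0.081 and 0.073, and the difference between the cytokines kept its call at -1.73. The processed pseudogene Sms-ps was at 0.129 to 0.480 FPKM.

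A further 44 genes of the pathway were counted by list, and 31 of them passed the filter. IL-4 called 4 of these higher and 5 lower, where 5.02% and 8.89% of all genes were called. IL-6 called 1 higher and 0 lower, where 3.49% and 1.89% of all genes were. IL-6 against IL-4 gave 6 higher and 5 lower, where 13.6% and 6.82% of all genes were called. The other 13 (Slc7a3, Slc25a29, Pycr1, Otc, Cps1, Nags, Agmat, Nos1, Nos3, Ddah1, Oaz3, Amd2 and Slc18b1) were too low to test in the filtered fit. By an adjusted p alone, 6 of the 31 tested genes rose and 6 fell with IL-4, where 8.55% and 16.3% of all genes did. With IL-6, 3 rose and 3 fell, where 4.58% and 3.82% did.

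Among 4 tested carriers besides the members, 1 was called lower with IL-4, where 8.89% of all genes were. It was Slc7a7, the light chain of a carrier that lets arginine out of the cell in exchange for neutral amino acids. Its mean was 21.6 ± 1.31 FPKM (SD, n = 3) in control libraries, 3.70 ± 0.83 in IL-4 and 15.4 ± 0.90 in IL-6 libraries, a log2FC of -2.54 with IL-4 (adjusted p = 2.7e-05). Its partner Slc3a2 was at 133, 138 and 102 FPKM in the same order and was not called. Slc25a15, the mitochondrial ornithine carrier, rose by 0.58 with IL-6 (adjusted p = 0.047), under 2-fold.

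Of 8 tested enzymes around arginine, ornithine and proline, IL-4 called 3 higher, where 5.02% of all genes were. Aldh18a1, which makes the precursor shared by proline and ornithine from glutamate, went from 2.46 ± 0.35 to 11.5 ± 4.49 FPKM (log2FC 2.12, adjusted p = 0.0008). Gatm, which uses arginine in the opening step of creatine synthesis, went from 19.9 ± 1.70 to 66.5 ± 33.7 FPKM (1.59, adjusted p = 0.014) and was at 8.31 ± 0.29 with IL-6. Gatm was not called with IL-6 in the fit of all libraries (log2FC -1.25, adjusted p = 0.078) and was called without IL-4 #3 (adjusted p = 0.00047), but the log2FC was -0.18 (adjusted p = 0.81) with the division of libraries as a term. Gamt, the enzyme of the next step, rose by 0.85 under IL-4 (adjusted p = 0.020, against an adjusted p of 0.27 with the division of libraries as a term). Azin2, an antizyme inhibitor that was long listed as arginine decarboxylase, was called higher with both cytokines, from 0.466 FPKM in control libraries to 2.10 with IL-4 (1.95, adjusted p = 0.0002) and 1.08 with IL-6 (1.07, adjusted p = 0.011), the latter losing its call with the division of libraries as a term (1.39, adjusted p = 0.097). Oat, Pycr3 and Prodh were not called in any comparison.

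In the nitric oxide list, the synthesis of the cofactor tetrahydrobiopterin was mixed. Pts, its middle enzyme, was called lower with IL-4 (8.62 against 3.92 FPKM, log2FC -1.12, adjusted p = 0.00021) and fell short of 2-fold after median-ratio rescaling (-0.92). Gch1, the opening enzyme, rose by 0.73 with IL-4 (adjusted p = 0.019, and 0.29 with that term). Spr, the closing enzyme, was lower with IL-6 than with IL-4 (-1.02, adjusted p = 0.030), and under 2-fold without IL-4 #3 (-0.68). None of the 4 tested genes of this list was called with IL-6 against control, where 3.49% of all genes were called higher and 1.89% lower.

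Both oxidases of polyamine breakdown fell with IL-4. Paox, which oxidises acetylated polyamines, went from 12.3 ± 0.60 FPKM in control libraries to 3.51 ± 0.53 with IL-4 (log2FC -1.79, adjusted p = 6.1e-05) and 8.32 ± 0.57 with IL-6 (-0.56, adjusted p = 0.043). Smox, spermine oxidase, was at 13.6 ± 0.47 FPKM in control, 7.66 ± 0.37 with IL-4 (-0.82, adjusted p = 0.0028) and 21.5 ± 3.26 with IL-6 (0.64, adjusted p = 0.022), so that it fell with IL-4 and rose with IL-6, the reverse of Sms, whose product it oxidises. Sat1, which acetylates spermidine and spermine, fell by 0.86 with IL-6 (adjusted p = 0.0098), and Mtap, which clears the by-product of Srm and Sms, fell by 0.58 (adjusted p = 0.033). The changes of Slc25a15, Paox, Smox, Sat1 and Mtap with IL-6 did not pass with the division of libraries as a term (adjusted p from 0.13 to 0.51), nor did those of Slc25a15, Paox and Mtap with the replicate block (adjusted p of 0.068, 0.087 and 0.072). Oaz1, Oaz2, Azin1 and Amd1, which control or feed Odc1 and the synthases, did not pass the test in any comparison of the reported fit.

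Atp13a2, a lysosomal polyamine exporter, was called lower with IL-4 (127 ± 6.26 against 53.9 ± 6.71 FPKM, log2FC -1.24, adjusted p = 0.0002, and -0.94 and under 2-fold with the length and GC trend removed) and was at 124 ± 2.93 FPKM with IL-6. Eif5a, the translation factor that carries the spermidine-derived residue hypusine, was called higher with IL-4 (149 ± 29.6 against 346 ± 131 FPKM, 1.17, adjusted p = 0.013), with 0.88 and no call when IL-4 #3 was left out and 0.79 (adjusted p = 0.20) with the division of libraries as a term. Its relative Eif5a2 was called lower with IL-4 (-1.39, adjusted p = 0.039). That call was kept in 2 of 9 fits leaving out a library, was under 2-fold without IL-4 #3 (-0.90) and did not pass with the division of libraries as a term (-0.83, adjusted p = 0.43). The hypusine-forming enzymes Dhps and Dohh were not called.

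**Figure D4:**
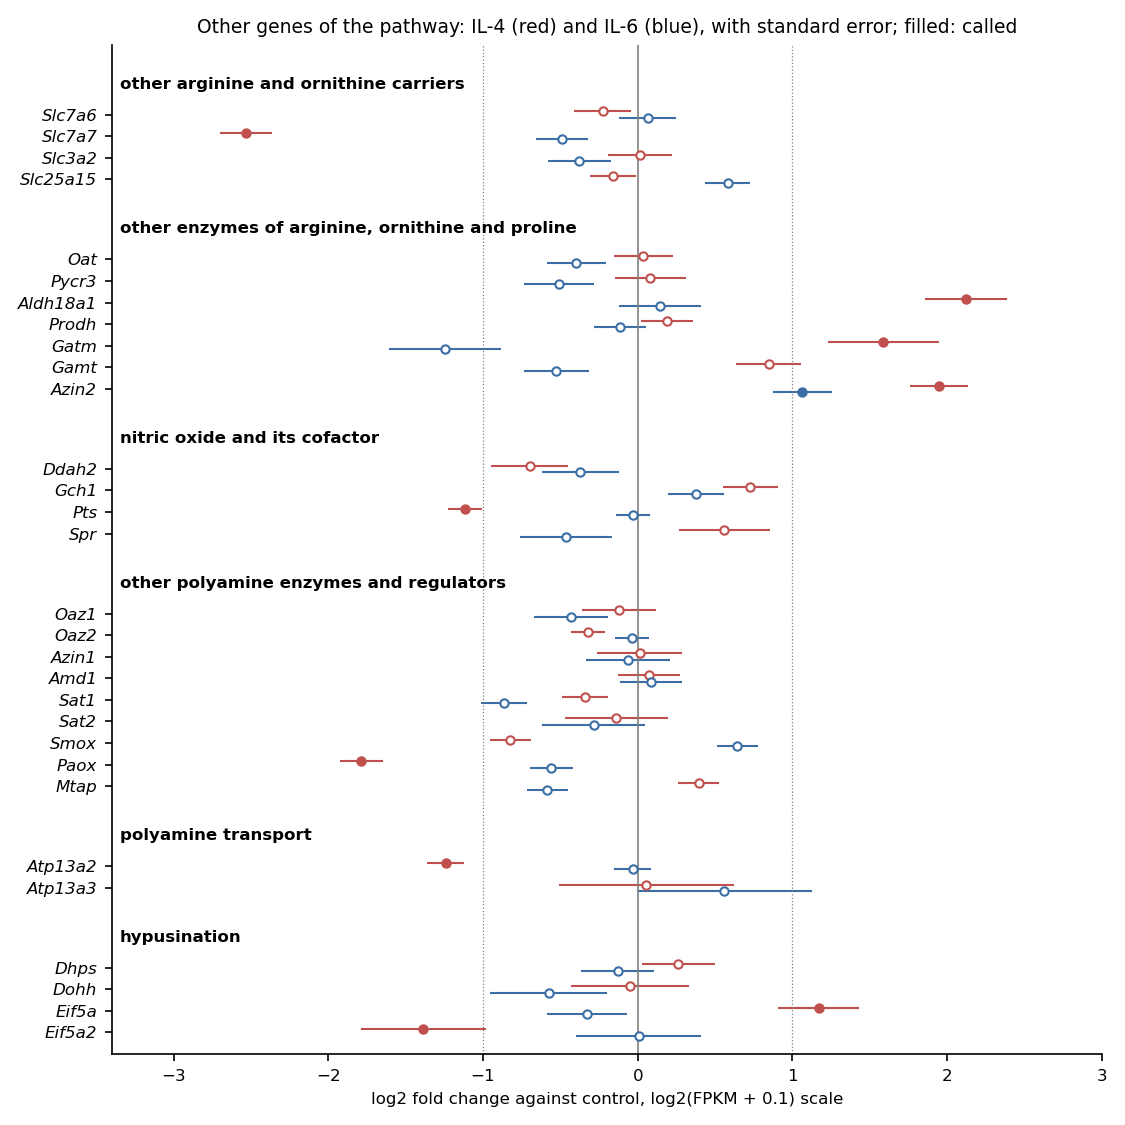
Log2 fold change against control, with its standard error, of tested genes of the pathway that are not among the 10 members, for IL-4 (red) and IL-6 (blue). Filled points are called and dotted lines mark 2-fold. Slc7a7 lies farthest to the left (-2.54) and Aldh18a1 farthest to the right (2.12), both with IL-4, and Azin2 is the one filled blue point.

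The genes with the pattern most like a member over the 9 libraries were taken by the smallest root mean square difference of centred log2(FPKM + 0.1). Nearest to Arg1 were Rnase2a (0.69), Retnla (0.74) and Gzma (1.16). For Arg2 they were Tnfsf14 (0.26), Gpr84 (0.29) and Sirpb1c (0.32), whose mean levels with IL-6 were 20.2, 17.8 and 9.62 FPKM. For Slc7a2 they were Lipn (0.38), Ocstamp (0.52) and Pkp2 (0.56), with 31.1, 18.5 and 7.03 FPKM with IL-4 and under 1 FPKM in both other conditions. The libraries are shared by all these genes, and the likeness carries no test.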

How the data were processed

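For RNA-seq of BM-derived Mϕs, the authors deposited 1 table of FPKM with a column per library. Per the submitters' processing notes the reads were aligned with STAR 2.4.2a to GRCm38 and FPKM came from Cufflinks 2.2.1; RNA was made into stranded mRNA libraries, and the strand setting of the counting is not given in the sources used here. Multiplied by GENCODE M21 exon lengths (50604 of 53379 gene versions matched, 94.8%), all FPKM of up to 1000 fragments came out as whole fragments within 0.05, so that depth per library could be recovered, and the program that made the table was not settled by this. Because FPKM carry no counts, tests used limma 3.58.1 (R 4.3.3, empirical Bayes with trend and robust settings) on log2(FPKM + 0.1) over genes with a mean of at least 0.5 FPKM, all 9 libraries in 1 fit. Nos2, below that limit, was taken from the same fit over all 31047 genes above 0. Shares were compared with two-sided exact permutation tests (scipy 1.17.1), in which 3 against 3 libraries cannot go below p = 0.1. The script was tested on simulated data. Groups were taken from the sample labels.

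The labels name 3 mice and number the libraries 1 to 3 in each condition, which was read as the same mice, though no label says outright that a number is a mouse. Deviations from the group means correlated between same-numbered libraries at 0.52, -0.41 and 0.078 for IL-4 and control, 0.41, 0.20 and 0.17 for IL-6 and control, and 0.28, -0.061 and 0.15 for IL-6 and IL-4. P-values measure the spread between these libraries. Alternatives were other pseudocounts (1 and 0.01), a mean of at least 5 FPKM or no filter, median-ratio and quantile scaling, only the groups compared, a replicate block, the division of libraries as a term, voom on recovered fragments, removal of a length and GC trend, and leaving out each library. The trend removal, voom on genes with a mean of at least 10 fragments for Nos2 and the values without IL-4 #3 beside named genes were chosen after seeing the data. The members and lists were chosen with earlier results of these data known. Named were all members, the called genes of the pathway lists, genes that a small count or a singled-out feature needed, 3 nearest patterns each for Arg1, Arg2 and Slc7a2, and Socs3 and Retnla as checks. A gene of the pathway lists is included in their counts and is not reported here by name.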

Additional observations from a re-analysis of the deposited data

How the results depend on the processing

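Outside the fits that left out a library, 312 member values under an alternative kept their direction and their side of the threshold, 7 lost the call and 5 turned their direction, all 5 in uncalled changes. With the division of libraries as a term, Slc7a2 with IL-6 became 0.55, Slc7a1 with IL-6 -0.12 and Asl with IL-4 -0.29; Slc7a1 with IL-6 was also -0.012 with quantile scaling and -0.043 with the length and GC trend removed. The same term left 2 members called with IL-6 (Arg2 and Ass1), ending the calls of Arg1 (2.79, adjusted p = 0.10) and Sms (-1.09, adjusted p = 0.081), and it gave 1111 genes called with IL-4 (1784 in the reported fit), 187 with IL-6 (690) and 3274 for IL-6 against IL-4 (2613); it rests IL-6 against control on the difference between IL-4 libraries. A filter at a mean of 5 FPKM, which tests 6559 genes, gave 847, 306 and 1219 calls, and the adjusted p alone 3186, 1077 and 4375. With a pseudocount of 1, Sms with IL-6 was -0.85 and no longer 2-fold, and Nos2 0.29; with 0.01 Nos2 was 3.20 (adjusted p = 0.076) and not called. The replicate block ended the Nos2 call with IL-6 (adjusted p = 0.059) and changed no other call of a member; it called 1788, 656 and 2734 genes in all. Median-ratio rescaling turned the split of IL-6 against IL-4 calls from 1738 higher and 875 lower to 1398 and 1165. Leaving out 1 library at a time kept 4, 4 and 6 tested members called, with 1450 to 2150 genes called with IL-4, 387 to 1001 with IL-6 and 2124 to 3274 for IL-6 against IL-4. IL-6 calls were 445 without control #2, 387 without control #3, 424 without IL-6 #2, 408 without IL-6 #3 and 1001 without IL-4 #3, and the cause was not tested. With a library left out, 259 member values kept direction and call, 7 lost the call and 1 gained it (all of Nos2), and 3 uncalled ones turned: Slc7a1 with IL-6 without control #2 (range -0.063 to 0.24), Odc1 with IL-4 without control #1 (-0.0044 to 0.15) and Asl with IL-4 without IL-4 #3 (-0.16 to 0.35). The Arg1 share ran from 11.1 to 14.4% in control libraries, 99.7 to 99.8% in IL-4 and 7.62 to 11.6% in IL-6 libraries, and the Slc7a2 share from 28.9 to 34.8%, 82.4 to 88.4% and 17.7 to 24.5%. In fragments rather than FPKM, which adds the longer Arg1 transcript, the Arg1 share was 18.4% in control libraries, 99.9% in IL-4 and 14.3% in IL-6 libraries. Among the members fragments were few for Nos2, at 0 to 40 a library, and for Arg1 in control libraries, at 32 to 48. The Arg1 folds over control therefore rest on a low base. Of the other pathway calls against control, those of Gatm with IL-4 held in 11 of 12 alternatives and 8 of 9 fits leaving out a library, Pts with IL-4 in 8 of 12 and 9 of 9, Eif5a with IL-4 in 9 of 12 and 7 of 9, and Azin2 with IL-6 in 9 of 11 and 6 of 9.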

Other observations

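Of the urea cycle genes left below the filter, Cps1, which makes the carbamoyl phosphate that opens the cycle in liver and intestine, was detected mainly in the control libraries and IL-4 #1. It had 75, 64 and 60 fragments in control #1 to #3 and 42 in IL-4 #1, but 1 and 2 in IL-4 #2 and #3 and 0, 1 and 0 in the IL-6 libraries. Otc, the next enzyme, had 8, 12 and 5 fragments in control and 6 in IL-4 #1, and was listed at 0 in the other 5 libraries. Agmat, agmatinase, had 4, 4 and 0 fragments in control and 1 in IL-4 #1, and was at 0 in the other 5. These are the libraries with 808 to 1017 fragments of 13 intestinal genes. In the fit without the filter Cps1 fell with IL-6 (log2FC -2.17, adjusted p = 0.032), and with the division of libraries as a term the log2FC was -0.59 (adjusted p = 0.46). The replicate block gave an adjusted p of 0.060.

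Of the marker lists of other cells, the summed level of 6 lymphocyte genes was 11.5 to 21.1 FPKM in control, 10.1 to 12.5 in IL-4 and 8.44 to 15.8 in IL-6 libraries. Over 5 fibroblast and stroma genes it was 0.330 to 0.729, 0.293 to 0.466 and 0.567 to 0.662 FPKM. Summed over 16 skeletal muscle genes it was 5.68 to 8.21, 1.94 to 11.0 and 8.98 to 15.6 FPKM. Most of the control sum was Tnni2, and the other 15 genes summed to 1.24 to 1.43 FPKM in control, 1.06 to 10.1 in IL-4 and 6.70 to 13.5 in IL-6 libraries, with IL-4 #1 the lowest IL-4 library.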
